A study of Homo sapiens with 6 samples.

Results

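The genes described here encode the ESCRT machinery, the protein complexes that bud and cut membranes away from the cytosol. They were taken from the deposited tables by 34 gene symbols, out of 23059 symbols listed, and all 34 were found. They comprise 3 genes of ESCRT-0, 8 of ESCRT-I, 3 of ESCRT-II, 12 of ESCRT-III, 3 of the VPS4 complex and 5 of accessory proteins. HCC-LM3 cells, an established line of human hepatocellular carcinoma, had been treated with apigenin, a plant flavone (n = 3), or with DMSO as the control (n = 3). Total RNA was sequenced, and the titles call the samples biological replicates. No source used here gives the dose or the duration. The title of the study concerns microvesicle formation and tumour angiogenesis.

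The ESCRT complexes act in sequence on endosomes. ESCRT-0 gathers ubiquitinated cargo, ESCRT-I and ESCRT-II deform the membrane, ESCRT-III filaments close the neck of the bud, and the ATPase VPS4 takes the filaments apart. The same ESCRT-III and VPS4 proteins act at the midbody in cell division, at the nuclear envelope and at the plasma membrane, where the arrestin-like protein ARRDC1 recruits TSG101 to release microvesicles. Syntenin (SDCBP) and ALIX (PDCD6IP) connect syndecans with ESCRT-III in the making of exosomes.

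Libraries held 33882145 to 37983636 counts. Read counts are given as CPM (scaled to library size with TMM factors) to compare samples, and FPKM, which divide by gene length, to compare genes. In bulk RNA, fewer cells with a transcript and less of it per cell cannot be told apart. Of 7 hepatocyte marker genes, 6 averaged more than 1 FPKM, with a sum of 52.9 to 54.0 FPKM in apigenin and 88.5 to 90.9 FPKM in DMSO libraries. Of the markers of other cells, LUM, PECAM1, KDR and CD68 passed 1 FPKM, while COL1A1, CDH5, VWF and PTPRC stayed at or below 0.174 FPKM. Summed fibroblast markers had 10.7 to 11.6 FPKM with apigenin and 8.50 to 9.30 with DMSO, endothelial markers 13.4 to 15.0 and 16.2 to 17.1, and leukocyte markers 50.4 to 54.4 and 50.8 to 54.7. Their part in the results was not tested. The apigenin libraries also differed from DMSO, and among themselves, in a trend on gene length: per doubling of length the log2 ratio to the DMSO mean changed by -0.069, -0.02 and -0.144 in apigenin 1, 2 and 3, against 0.002, -0.005 and 0.003 in DMSO 1, 2 and 3. Fold changes are therefore given both as measured and with each library's length trend removed. In this design a trend from library preparation and one from apigenin cannot be told apart, and neither was tested.

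ESCRT genes were well expressed, and their order changed little between the groups. In DMSO cells 32 of the 34 averaged more than 1 FPKM. CHMP4B, the main filament subunit of ESCRT-III, ranked first at 109 ± 8.05 FPKM with apigenin and 99.1 ± 1.15 FPKM with DMSO (SD, n = 3 each, as for all levels given so). SDCBP had 100 ± 3.50 and 98.8 ± 1.89 FPKM, and PDCD6, the calcium-binding partner of ALIX, 105 ± 9.04 and 94.5 ± 5.04 FPKM, in apigenin and DMSO cells. With DMSO the libraries of these 3 genes overlapped. CHMP2A, HGS, VPS28 and CHMP5 followed, with 60.2 to 74.4 FPKM in DMSO cells. At the low end of the list VPS37A had 3.93 ± 0.0915 FPKM with apigenin and 3.86 ± 0.148 FPKM with DMSO, and MVB12B 0.665 ± 0.103 and 0.750 ± 0.0265 FPKM.

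CHMP3, an ESCRT-III subunit that binds CHMP2A, stood apart from the rest, with 6, 3 and 5 reads in the apigenin and 9, 4 and 12 reads in the DMSO libraries. CHMP3 did not pass the filter on low counts, so no fold change is given and a difference was not detectable at this depth. The readthrough gene RNF103-CHMP3, which shares a run of 761 identical transcript bases with CHMP3, had 38, 63 and 41 reads in the apigenin and 58, 58 and 40 reads in the DMSO libraries. No source used here states how reads matching both genes were counted, and the part of such reads in the low count was not tested.

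**Figure D1:**
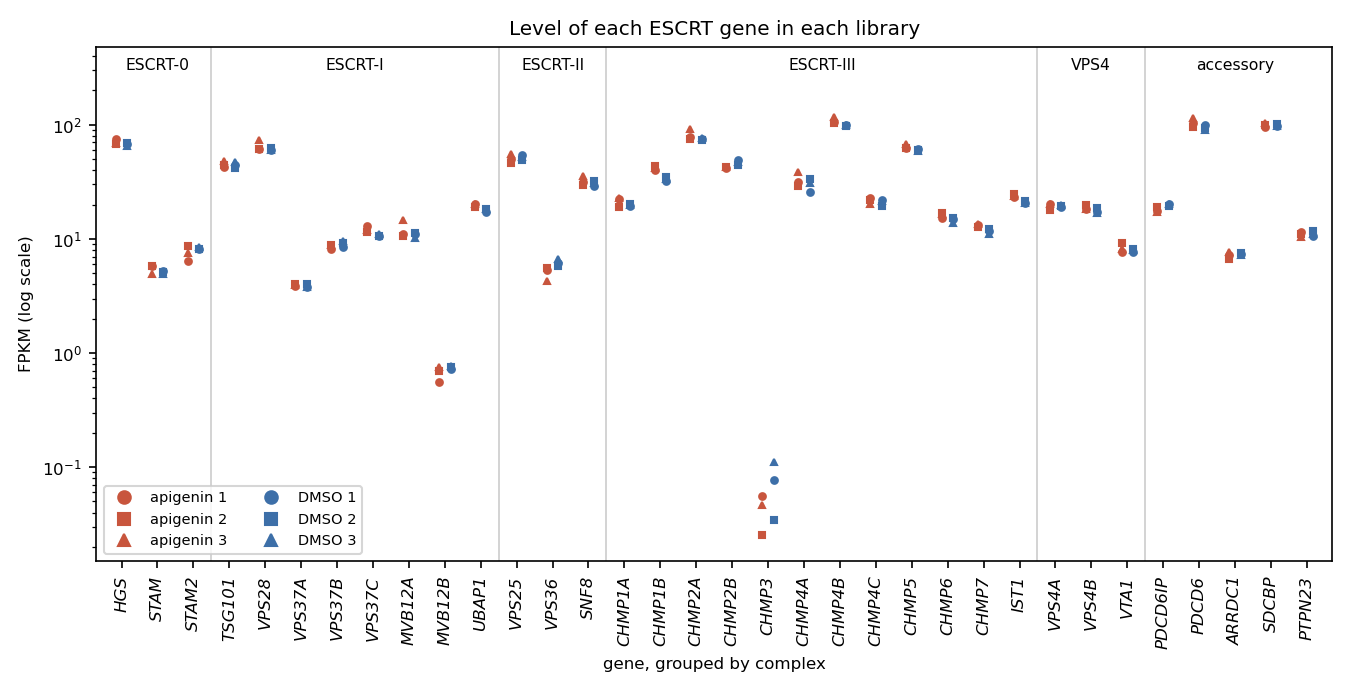
FPKM of each of the 34 ESCRT genes (vertical axis, log scale) in each apigenin library (red) and DMSO library (blue), with genes grouped by complex and symbols for replicates 1, 2 and 3. Within a gene the libraries lie close together compared with the distance between genes; CHMP3 and MVB12B are the 2 genes under 1 FPKM.

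With apigenin 2 ESCRT genes rose, both of ESCRT-III: CHMP1B and IST1. IST1 and CHMP1B proteins are known to polymerise together into a filament that coats membrane tubules, and both bind the microtubule-severing ATPase spastin. Among the 33 tested genes these 2 were the only ones that passed, with 0 lower and 31 not past the threshold (edgeR's quasi-likelihood test, Benjamini-Hochberg adjustment over 15173 genes, threshold 0.05). Among all tested genes 2.76% rose and 4.22% fell, so the share of ESCRT genes that rose, 6.06%, rests on 2 genes. At an unadjusted p under 0.05, 6 ESCRT genes were higher and 3 lower, which is 18.2% and 9.09%, beside 11.7% and 12.6% of all tested genes. DESeq2 called the same 2 genes higher and VPS36 lower, beside 4.76% and 6.37% of all genes.

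CHMP1B, whose protein recruits spastin and other MIT-domain proteins to sites of membrane scission, had 123, 131 and 129 CPM in the apigenin libraries and 97.7, 106 and 102 CPM in the DMSO libraries. Every apigenin library lay above every DMSO library. The rise was 25.2% (log2 fold change 0.32 ± 0.06, SE, n = 3 per group, edgeR adjusted p = 0.00554). With the length trend removed it was 0.28 (adjusted p = 9.47e-04). The call was lost without DMSO 1 (0.30, adjusted p = 0.0704) and kept with any other single library left out.

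IST1, a regulator that binds VPS4 and CHMP1 proteins, had 113, 118 and 117 CPM in the apigenin libraries and 99.1, 102 and 99.5 CPM in the DMSO libraries. The groups did not overlap here either. The rise was 15.6% (0.21 ± 0.06, adjusted p = 0.0408), close to the threshold, and stood at 0.23 with the length trend removed (adjusted p = 0.00394). The gene was called in 9 of 16 other settings and lost its call without apigenin 1 or DMSO 1, 2 or 3 (adjusted p = 0.112, 0.19, 0.133 and 0.18), at log2 fold changes of 0.20 to 0.23. With the replicate number as a block IST1 had adjusted p = 0.0682. IST1 shares 1100 bases at 96.7% identity with the processed pseudogene AC016582.2, so its level is uncertain to that extent.

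CHMP1B (chromosome 18, 11851413 to 11854444, forward strand, GRCh38) lies within the range of GNAL and shares no annotated exon base with it. GNAL had 233, 315 and 213 reads in the apigenin and 252, 251 and 267 in the DMSO libraries, far below the 4165, 5015 and 4321 reads of CHMP1B with apigenin and its 3632, 3956 and 3514 with DMSO. Of its 3054 exon bases, 553 are also exon of the antisense gene CHMP1B-AS1, whose reads cannot be told apart without strand. IST1 lies on chromosome 16 (71894408 to 71931199, forward strand), where 7.1% of its exon bases are also exon of ATXN1L, PKD1L3 or ZNF821.

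The sequence before the start of CHMP1B is shown because this gene had the largest rise of the 33, with 30 bases from 41 to 12 before an internal start of IST1 for comparison (RefSeq, GRCh38.p14, forward strand, 5′ to 3′). Capitals mark TGACGTCA, the cAMP response element, in CHMP1B, and GCGTG, the core of the aryl hydrocarbon receptor element, in IST1.
CHMP1B, chr18:11851163-11851412: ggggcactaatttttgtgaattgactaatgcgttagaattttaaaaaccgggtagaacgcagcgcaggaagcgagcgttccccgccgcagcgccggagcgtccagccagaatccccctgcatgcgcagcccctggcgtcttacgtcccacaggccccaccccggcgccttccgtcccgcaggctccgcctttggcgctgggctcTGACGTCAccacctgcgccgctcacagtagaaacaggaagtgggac
IST1, chr16:71895452-71895481: ctggaaaggaggGCGTGgctatatcggccc
Searched on both strands in the 250 bases before the start, CHMP1B held TGACGTCA once, at -46, and none of the other motifs, which were GCGTG, the AP-1 site TGACTCA and the E-box, CACGTG. IST1 held GCGTG at -179, -78 and -29 and TGACTCA at -190, and no match overlapped another. TGACGTCA occurs in 1.65% of 35116 such windows, GCGTG in 32.2%, TGACTCA in 4.20% and CACGTG in 6.34%. Of the 26 ESCRT genes with a window, UBAP1 and VPS37B also held TGACGTCA, and 13 held GCGTG, in any window of the gene. A gene can have several windows, so these counts per gene cannot be set against the shares per window. The motifs were chosen after the sequences were seen, and a match describes letters only.

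**Figure D2:**
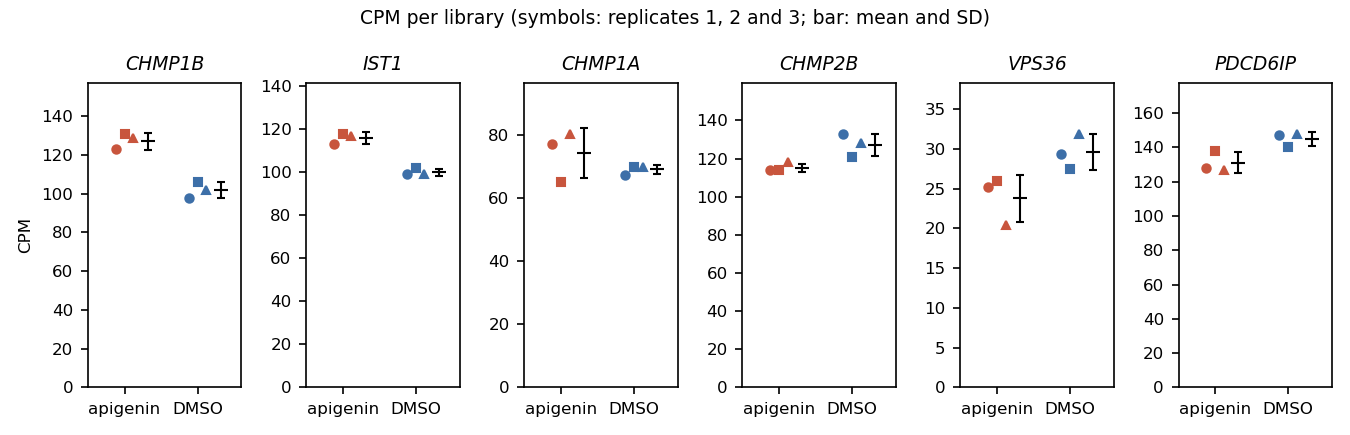
CPM (vertical axis, from 0) of 6 ESCRT genes in the apigenin (left, red) and DMSO (right, blue) libraries; symbols are replicates 1, 2 and 3, and the bar gives the mean and SD (n = 3). CHMP1B and IST1 lie higher in every apigenin library, CHMP2B, VPS36 and PDCD6IP lie lower in every apigenin library without passing the test, and CHMP1A overlaps.

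Among the other ESCRT-III genes most log2 fold changes were small and positive, and none passed. Of all 11 tested ESCRT-III genes, CHMP1B and IST1 included, 10 had a log2 fold change above 0, against 50.8% of all tested genes. The median of the 11 was 0.13, beside 0.00 over all tested genes. ESCRT-III genes are short, with a median of 1908 nucleotides, and genes of that size were higher as a whole: groups of all tested genes with median lengths of 1830 and 2147 nucleotides had median log2 fold changes of 0.11 and 0.09. With the length trend removed the ESCRT-III median was 0.02. CHMP4B had 168, 165 and 192 CPM in the apigenin and 160, 156 and 160 CPM in the DMSO libraries (log2 fold change 0.14 ± 0.06, adjusted p = 0.201), and 0.02 with that trend removed. CHMP2A, its partner in the filament, went likewise (0.13 ± 0.08 as measured, 0.01 with the trend removed), as did CHMP5 (0.10 ± 0.06 and 0.00), which binds VTA1. For both genes apigenin 3 was the highest library, at 154 CPM for CHMP2A and 131 CPM for CHMP5.

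CHMP7, which brings ESCRT-III to the nuclear envelope, is longer, at 4848 nucleotides. It had 63.4, 60.3 and 66.4 CPM in the apigenin and 57.1, 59.0 and 53.9 CPM in the DMSO libraries, with no overlap. Its log2 fold change was 0.16 ± 0.07 as measured (adjusted p = 0.161) and 0.18 with the length trend removed (adjusted p = 0.073), past the threshold in neither. CHMP6, which links ESCRT-II to CHMP4, had 0.15 ± 0.08 and CHMP4A 0.13 ± 0.11. CHMP1A had 0.10 ± 0.08 (called only without apigenin 2, at 0.19) and CHMP4C, which delays abscission in cell division, 0.05 ± 0.07. With the length trend removed CHMP6, CHMP4A, CHMP1A and CHMP4C had 0.06, -0.03, 0.08 and -0.04. Of CHMP4A's exon bases 68.8% are shared with other annotated genes on the same strand, so its level is uncertain.

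CHMP2B, a filament subunit whose gene is mutated in a form of frontotemporal dementia, was the 1 ESCRT-III gene with a negative value. It had 114, 114 and 118 CPM in the apigenin and 133, 121 and 128 CPM in the DMSO libraries, without overlap (-0.14 ± 0.06, adjusted p = 0.149). It passed only with the length trend removed (-0.20, adjusted p = 0.0139).

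**Figure D3:**
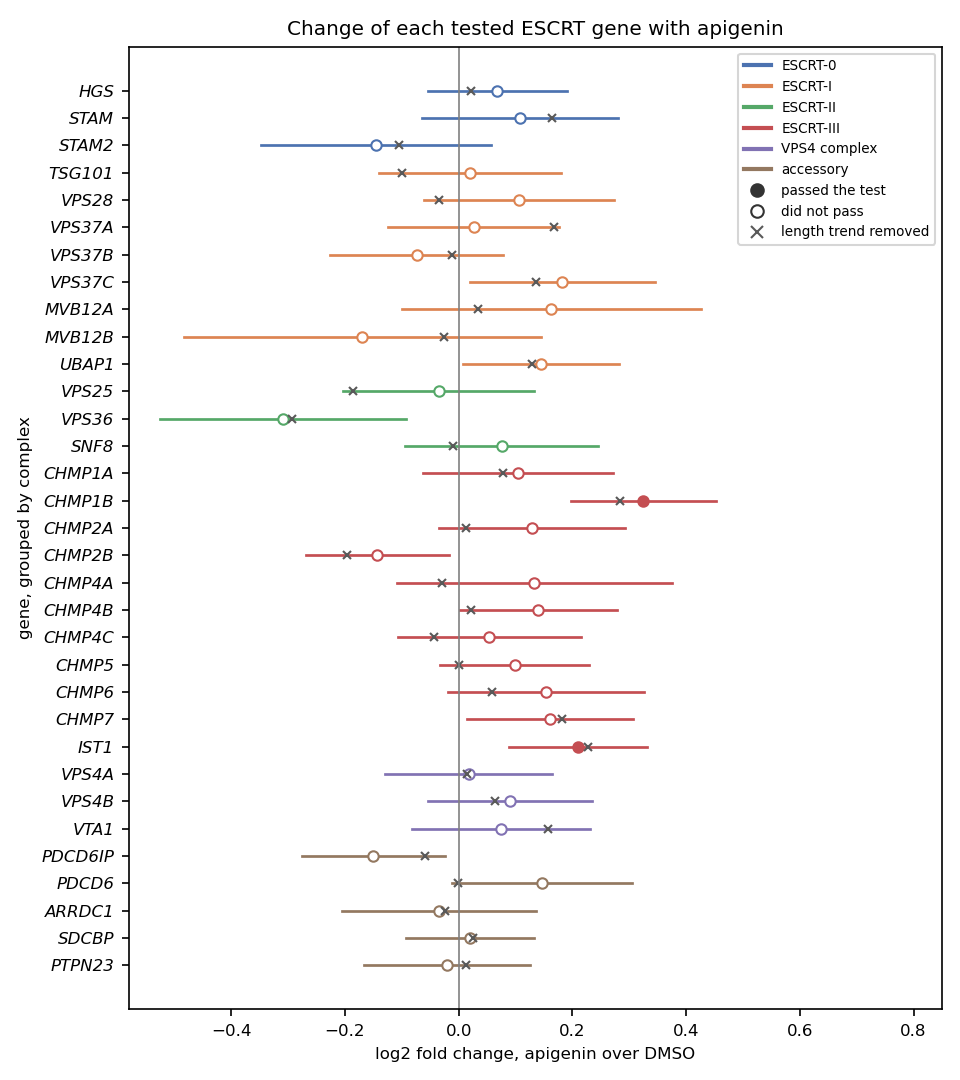
Log2 fold change of each of the 33 tested ESCRT genes, apigenin over DMSO (horizontal axis), with its 95% interval from the edgeR fit; colours give the complex, filled circles passed the test and crosses give the value with the length trend removed. CHMP1B and IST1 are the filled circles, and no interval reaches a log2 value of 0.585, a 1.5-fold change, in either direction.

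The ESCRT-0 genes, whose products bind ubiquitin and the endosomal lipid PI3P, went both ways and none of the 3 passed. HGS, the PI3P-binding subunit, had 215, 196 and 201 CPM in the apigenin and 196, 200 and 189 CPM in the DMSO libraries (0.07 ± 0.06). STAM had 34.9, 34.3 and 30.2 CPM with apigenin, against 31.6, 30.6 and 30.1 CPM with DMSO (0.11 ± 0.08). Its paralog STAM2 had 34.7, 46.6 and 41.7 CPM with apigenin, against 45, 44.3 and 46.8 CPM with DMSO (-0.15 ± 0.09). In all 3 genes the groups overlapped. STAM2 varied most between the apigenin libraries: it was called lower only without apigenin 2, the library with the most STAM2 reads (-0.25, adjusted p = 0.0495).

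None of the 8 ESCRT-I genes passed. TSG101, the subunit that binds P(S/T)AP motifs in cargo adaptors and in ARRDC1, had 66.8, 69.2 and 77.3 CPM in the apigenin and 70.5, 65.4 and 74.6 CPM in the DMSO libraries, which overlapped. Its log2 fold change of 0.02 had a 95% interval of -0.14 to 0.18, and it was -0.10 with the length trend removed. VPS28, the subunit that contacts ESCRT-II, had 0.11 ± 0.08, and was highest in apigenin 3 (89.9 CPM, against 74.6 and 73.8 CPM in apigenin 1 and 2).

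ESCRT-I holds 1 VPS37 protein and 1 of the MVB12 or UBAP1 proteins. Of the VPS37 genes, VPS37A, VPS37B and VPS37C are in the list. VPS37C had 37.2, 33.3 and 34.8 CPM in the apigenin and 30.8, 30.3 and 31.7 CPM in the DMSO libraries (0.18 ± 0.08, adjusted p = 0.155). UBAP1, which directs ESCRT-I to endosomes, had 75.7, 71.5 and 77.1 CPM with apigenin, against 64.8, 69.5 and 68.7 CPM with DMSO (0.14 ± 0.06, adjusted p = 0.183). In both the groups did not overlap, and both stayed positive with the length trend removed (0.14 and 0.13) without passing. VPS37A had 0.03 ± 0.07, VPS37B -0.07 ± 0.07, MVB12A 0.16 ± 0.12 and MVB12B -0.17 ± 0.15. The last value rests on 186 to 282 reads per library, the fewest of the tested ESCRT genes.

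ESCRT-II, a complex of VPS25, VPS36 and SNF8 that starts ESCRT-III assembly, had the largest negative value of the 33 genes. VPS36, its ubiquitin-binding subunit, had 25.2, 25.9 and 20.4 CPM in the apigenin and 29.3, 27.5 and 31.9 CPM in the DMSO libraries, which did not overlap. The difference of -19.3% (-0.31 ± 0.10, adjusted p = 0.0795) did not pass the edgeR test. It passed with DESeq2, with no filter on low counts, with the length trend removed (-0.29, adjusted p = 0.0424) and without apigenin 2 (-0.37, adjusted p = 0.0215). The other subunits did not follow it: VPS25 had -0.03 ± 0.08 and SNF8 0.08 ± 0.08, with overlapping groups in each. With the length trend removed VPS25 stood at -0.19 (adjusted p = 0.0548).

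The genes of the VPS4 ATPase and its cofactor moved little as measured, and their groups overlapped. VPS4A had 83.0, 73.4 and 84.9 CPM in the apigenin and 77.9, 78.9 and 81.5 CPM in the DMSO libraries (0.02 ± 0.07, 95% interval -0.13 to 0.16). VPS4B had 62.3, 67.6 and 63.1 CPM in the apigenin and 59.3, 63.6 and 58.4 CPM in the DMSO libraries (0.09 ± 0.07). VTA1, which stimulates VPS4, had 0.07 ± 0.07. With the length trend removed VPS4A, VPS4B and VTA1 had 0.01, 0.06 and 0.16, without passing (adjusted p = 0.927, 0.58 and 0.127). For VPS4A, 36.4% of exon bases are shared with AC026464.4 on the same strand or COG8 on the opposite strand. AC026464.4 matches it over 1192 identical bases, so the level of VPS4A is uncertain to that extent.

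None of the 5 accessory genes passed either. PDCD6IP, which encodes ALIX, had 128, 138 and 127 CPM in the apigenin and 147, 140 and 148 CPM in the DMSO libraries, without overlap (-0.15 ± 0.06, adjusted p = 0.132). At 7308 nucleotides it is one of the longer genes of the list, and it stood at -0.06 once the length trend was removed (adjusted p = 0.48). Leaving out apigenin 2 gave a call as lower (-0.19, adjusted p = 0.0249). PDCD6IP shares over 1000 bases with the pseudogenes PDCD6IPP1 (97.3% identity) and PDCD6IPP2 (96.5%), so its level is uncertain to that extent. PDCD6, of 1110 nucleotides, showed the reverse: 0.15 ± 0.07 as measured, 0.00 with the trend removed, and called higher without apigenin 2 (0.21, adjusted p = 0.0311).

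In ARRDC1 and SDCBP, unlike PDCD6IP, the groups overlapped. ARRDC1 had 33.2, 29.9 and 35.0 CPM in the apigenin and 33.5, 34.1 and 32.8 CPM in the DMSO libraries (-0.03 ± 0.08, 95% interval -0.20 to 0.14). SDCBP had 422, 436 and 458 CPM in the apigenin and 428, 441 and 429 CPM in the DMSO libraries (0.02 ± 0.05, 95% interval -0.09 to 0.13). PTPN23, a catalytically weak phosphatase that binds CHMP4, had -0.02 ± 0.07.

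Groups that did not overlap were counted over the whole list. In 8 of the 33 genes (24.2%) every apigenin library was above every DMSO library, and in 3 (9.09%) every one was below. Of all tested genes 14.4% were above and 15.0% below in that way. Of the 8, 6 belong to ESCRT-III (CHMP1B, CHMP4B, CHMP5, CHMP6, CHMP7 and IST1) and the others are VPS37C and UBAP1. The 3 below are VPS36, CHMP2B and PDCD6IP. The spread was wider with apigenin: the median coefficient of variation of the 33 genes was 7.65% over the apigenin and 3.60% over the DMSO libraries, and 27 of 33 (81.8%) varied more with apigenin. Over 15172 tested genes with reads in both groups the medians were 9.97% and 6.32%, and 66.3% varied more with apigenin, so the wider spread ran through the libraries as a whole.

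The length trend described above also ran through the ESCRT genes. Across the 33 genes log2 fold change and length had a Spearman correlation of -0.40, beside -0.36 over the 15173 tested genes, which share these 6 libraries and are not independent. Removing the trend moved the median of the 33 genes to 0.013, against 0.075 as measured. With it removed 2 genes were higher (CHMP1B and IST1) and 2 lower (CHMP2B and VPS36), beside 4.61% higher and 5.41% lower of all tested genes.

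**Figure D4:**
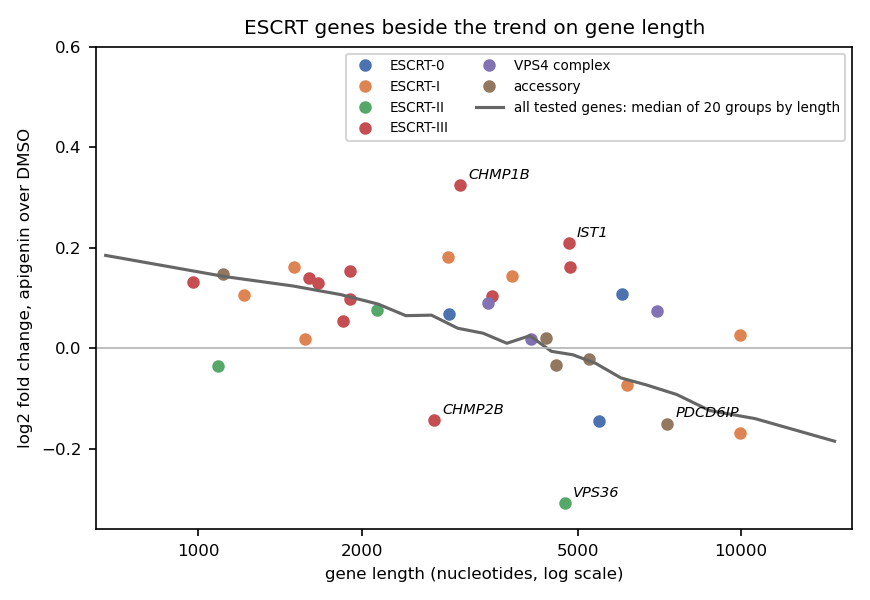
Log2 fold change, apigenin over DMSO (vertical axis), of the 33 tested ESCRT genes against gene length in nucleotides (log axis), coloured by complex; the grey line is the median of all tested genes in 20 equal groups by length. Short ESCRT-III genes lie near the line, CHMP1B and IST1 lie above it, and VPS36 and CHMP2B lie below it.

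Several ESCRT subunits come from paralogous genes that can stand in for one another, so their shares of the summed FPKM of each family were compared, as a description without a test. CHMP1B made up 64.6, 69.7 and 64.7% of CHMP1 FPKM in the apigenin and 62.5, 63.4 and 62.5% in the DMSO libraries, the rest being CHMP1A. CHMP2B made up 34.9, 36.4 and 31.9% of CHMP2 FPKM in the apigenin and 39.7, 38.1 and 38.2% in the DMSO libraries. VPS37C had 51.7, 47.6 and 48.2% of the summed FPKM of VPS37A, VPS37B and VPS37C in the apigenin and 46.4, 44.4 and 45.1% in the DMSO libraries. For CHMP1B, CHMP2B and VPS37C the shares of the groups did not overlap, with mean differences of 3.53, -4.24 and 3.88 percentage points. The share of VPS37A overlapped between the groups. Shares were not computed for families outside the list, so how often they separate in these libraries is not known. For single genes, 14.4% of all tested genes had every apigenin library above and 15.0% every one below the DMSO libraries in CPM.

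STAM2 made up 52.3, 60.0 and 60.4% of STAM FPKM in the apigenin and 61.1, 61.5 and 63.2% in the DMSO libraries, without overlap, apigenin 1 being farthest from the rest. MVB12A had 95.3, 94.0 and 95.1% of MVB12 FPKM in the apigenin and 93.9, 93.7 and 93.0% in the DMSO libraries, again without overlap. VPS4A and VPS4B were nearly equal, with VPS4A at 51.0 ± 3.02% in apigenin and 52.3 ± 1.47% in DMSO cells, and CHMP4B led its family at 66.6 ± 0.53% and 66.0 ± 1.41%. The groups overlapped for VPS4A and CHMP4B.

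Paralogs also differ in length, so log2 fold changes with the length trend removed are given for the families in which a share did not overlap. For MVB12A (1501 nucleotides) and MVB12B (9948) they were 0.03 and -0.03, against 0.16 and -0.17 as measured. For VPS37C (2886), VPS37B (6160) and VPS37A (9943) they were 0.14, -0.01 and 0.17, against 0.18, -0.07 and 0.03. These are the families with the widest differences in length, and in them the values of the paralogs drew together or changed order. For CHMP2A (1665) and CHMP2B (2715) the values were 0.01 and -0.20, against 0.13 and -0.14, for CHMP1B (3032) and CHMP1A (3483) 0.28 and 0.08, against 0.32 and 0.10, and for STAM (6035) and STAM2 (5472) 0.16 and -0.10, against 0.11 and -0.15. In these 3 pairs the order of the paralogs was kept.

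**Figure D5:**
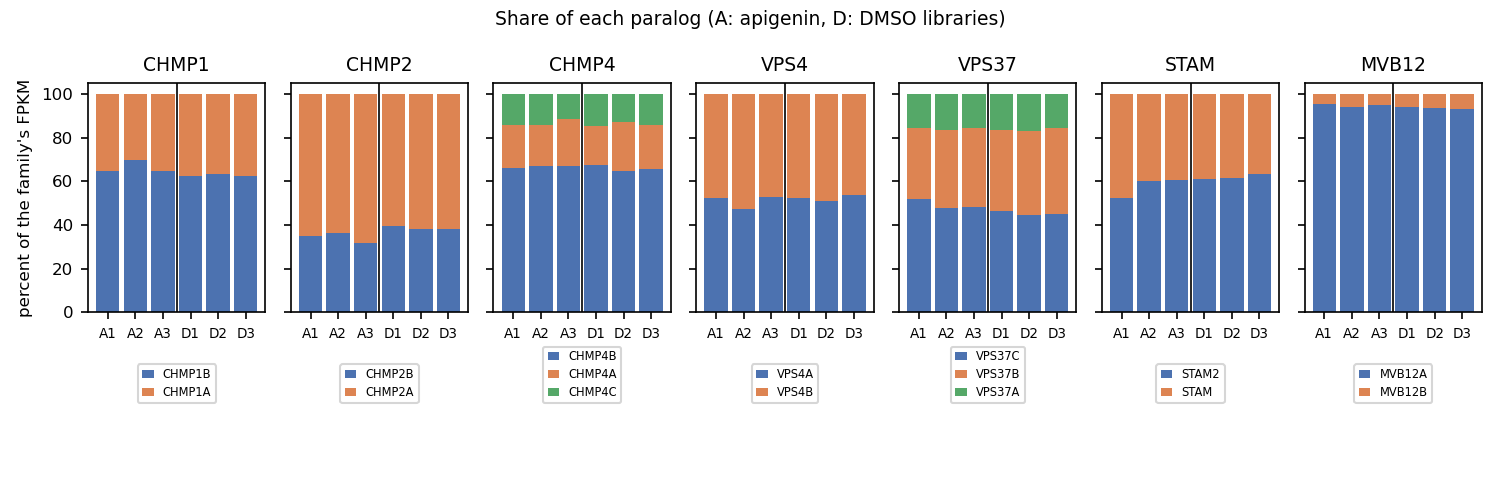
Percent of the summed FPKM of each of 7 paralog families (vertical axis, from 0) contributed by each gene, in apigenin libraries A1 to A3 (left) and DMSO libraries D1 to D3 (right of the line). CHMP1B takes a larger and CHMP2B a smaller share in every apigenin library, while CHMP4 and VPS4 shares overlap between the groups.

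Beyond the complexes themselves, 39 genes that act with them were examined: enzymes that add or remove ubiquitin, ESCRT-0-like adaptors, the PI3P kinase, ESCRT-III regulators and the syndecans with their partners. Tests were possible for 37, of which 2 fell, 0 rose and the other 35 stayed short of the threshold, with a median log2 fold change of -0.03, beside 2.76% higher and 4.22% lower of all tested genes. At an unadjusted p under 0.05, edgeR had 2 of them higher and 8 lower, which is 5.41% and 21.6%, beside 11.7% and 12.6% of all tested genes. DESeq2 called 0 higher and 4 lower, beside 4.76% and 6.37% of all tested genes. TEX14 and SDC2 had too few reads to be tested. EPS15, an endocytic adaptor that also forms a complex with ESCRT-0, fell to 24.2, 25.5 and 21.4 CPM in the apigenin libraries, against 30.0, 30.8 and 29.7 CPM in the DMSO libraries (-0.35 ± 0.09, adjusted p = 0.0306). Its call held after removal of that trend (-0.30, adjusted p = 0.0178) and was lost without apigenin 1 or any 1 DMSO library (adjusted p of up to 0.129).

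NEDD4L, a ubiquitin ligase of the NEDD4 family, fell to 38.6, 41.5 and 39.5 CPM in the apigenin libraries, against 50.1, 52.0 and 47.0 CPM in the DMSO libraries (-0.32 ± 0.07, adjusted p = 0.0181). Its length is 11629 nucleotides, and its value with the length trend removed was -0.16, short of the threshold (adjusted p = 0.162). Leaving out apigenin 1, DMSO 1 or DMSO 2 also ended the call (adjusted p = 0.0965, 0.111 and 0.107). SPAST, which encodes spastin, the partner of CHMP1B and IST1, had 30.8, 33.9 and 29.4 CPM in the apigenin and 32.5, 29.9 and 33.4 CPM in the DMSO libraries (-0.03 ± 0.08), which overlapped. EPS15L1, a paralog of EPS15, had 71.7, 69.4 and 66.9 CPM in the apigenin and 63.6, 60.8 and 57.1 CPM in the DMSO libraries, without overlap (0.20 ± 0.07, adjusted p = 0.0906), and passed with the length trend removed (0.29, adjusted p = 0.00311). In the same setting 3 more partner genes passed as lower: the syndecans SDC1 (-0.14, adjusted p = 0.0351) and SDC3 (-0.24, adjusted p = 0.0454), whose tails bind syntenin, and the adaptor TOM1L1 (-0.21, adjusted p = 0.0374). As measured they had -0.12, -0.28 and -0.17 (adjusted p = 0.168, 0.0606 and 0.151). With the trend removed, 1 partner gene was called higher and 4 lower, beside 4.61% and 5.41% of all tested genes. NEDD4 had -0.25 ± 0.07 in the edgeR fit, just short of the threshold (adjusted p = 0.0535), and was called lower by DESeq2. With the length trend removed it stood at -0.15 (adjusted p = 0.113). Among the 37 genes 2 had every apigenin library above and 10 every one below the DMSO libraries, which is 5.41% and 27.0%, beside 14.4% and 15.0% of all tested genes. Of the 10, 5 are ubiquitin enzymes, which are long, with a median of 7857 nucleotides. The median log2 fold change of these enzymes was -0.121 as measured and -0.018 with the length trend removed. The syndecans and their partners, with 2 of the 10, had medians of -0.133 and -0.155. SPAST, EPS15L1, SDC1, SDC3, TOM1L1 and NEDD4 are named after their values were seen.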

How the data were processed

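RNA from HCC-LM3 cells (3 apigenin and 3 DMSO samples, grouped by title) was isolated with TRIzol; the library kit was VAHTS Universal V6, per the labels' protocols. The submitters' processing notes name GRCh38 (hg38) and the tools fastp, HISAT2 and HTSeq. No source used here states their versions, the annotation or the strand setting. The authors deposited raw read counts by gene symbol, and FPKM. The deposited FPKM equal the count over a fixed gene length and the library total (relative tolerance 1e-04), which gave the lengths.

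Counts of all 23059 genes were fitted with edgeR 4.0.16 (R 4.3.3; quasi-likelihood test, TMM factors, default filter, 15173 genes kept), with Benjamini-Hochberg adjustment over all of them at 0.05. The SE is the log2 fold change over the root of F. The spread was taken over both groups together. A count of 0 allows 3 counts (0.079 to 0.0885 CPM, counting error only). Replicates differed by more than counting noise (chi-square over degrees of freedom of 4.39 or more). Alternatives were DESeq2 1.42.0, other scalings and filters, a replicate block, limma 3.58.1 on log2(FPKM + 1) or log2(FPKM + 0.1), each library's lowess trend (span 0.3) on log2 length removed as offsets, and each library left out. Positions come from RefSeq, where all 34 symbols matched. Exon overlaps and similar transcripts (blastn, 300 bases or more at 95% or more) come from GENCODE 29. The fits were also run on simulated counts with known changes. That check did not require recovery of changes as small as those of the ESCRT genes. All 34 ESCRT genes are named by rule. Of the 39 partner genes those that passed are named, with exceptions given in the text. The members and lists were chosen with earlier results of these data known.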

Additional observations from a re-analysis of the deposited data

How the results depend on the processing

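Counts of calls depended on the setting. ESCRT genes called higher numbered 2 in the main fit, 1 with the replicate block, 1 with limma on log2(FPKM + 0.1) and 0 with limma on log2(FPKM + 1) without a filter, and 0 to 4 with 1 library left out. The 4, without apigenin 2, were CHMP1A, CHMP1B, IST1 and PDCD6. Those called lower numbered 0 in the main fit, 1 with DESeq2 and 1 with no filter (VPS36 in each), 2 with the length trend removed, and 0 to 3 with 1 library left out. Of the partner genes, 0 were called higher in the main fit, 1 (EPS15L1) with the length trend removed, and 0 to 1 with 1 library left out. Partner genes called lower numbered 2 in the main fit, 4 with DESeq2, 4 with no filter, 4 with the length trend removed, 0 in each of the 3 limma fits on FPKM, and 0 to 5 with 1 library left out. The cause of these moves was not tested. Over all genes, 419 rose and 641 fell in the main fit, 722 and 967 with DESeq2, 865 and 1096 with no filter, 352 and 303, 336 and 289, and 78 and 60 in the limma fits, and 699 and 821 with the length trend removed. Leaving out 1 library gave 103 to 1344 higher and 157 to 1546 lower, fewest without DMSO 1 and most without apigenin 2.

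Signs turned for 11 ESCRT genes, none of them called in the main fit. With the length trend removed TSG101 stood at -0.0989, VPS28 at -0.035, SNF8 at -0.0103, CHMP4A at -0.0287, CHMP4C at -0.0428, PDCD6 at -0.0019 and PTPN23 at 0.013. Leaving out 1 library gave -0.0447 to 0.0647 for TSG101, -0.1103 to 0.0281 for VPS25, -0.0085 to 0.142 for SNF8, -0.0229 to 0.0788 for VPS4A, -0.087 to 0.0264 for ARRDC1, -0.013 to 0.0455 for SDCBP and -0.0575 to 0.0168 for PTPN23. No pairing by replicate number was seen: deviations of same-numbered libraries correlated at 0.00, -0.04 and -0.05. With 3 libraries per group these values cannot exclude a pairing. CHMP1B stayed between 0.28 and 0.35 and IST1 between 0.19 and 0.23 over the 16 alternatives.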
